A study of Mus musculus with 14 samples.

Results

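The apolipoproteins described here are 10 genes for protein components of plasma lipoproteins, namely Apoa1, Apoa2, Apoa4, Apoa5, Apoc1, Apoc2, Apoc3, Apoe, Apoh and Apom. They were taken as the probe sets whose annotated gene symbol is one of these names, out of 22206 probe sets tested. For 9 of the 10 genes 1 probe set was found, and Apoc2 was not analysed here. The animals were adult wild-type males of the C57Bl6 strain that received, over 2 weeks, CDAA, a diet deficient in choline to which cholesterol, glucose and fructose were added, or else CSAA, its control. Total liver was the caudal lobe taken after saline perfusion through the heart, with 4 arrays on CDAA and 4 on CSAA. Primary hepatocytes were cells obtained by collagenase perfusion, with 3 arrays on CDAA and 3 on CSAA. Each array held a separate preparation of total liver or hepatocytes, hybridised to a Clariom S mouse array, and no group carried a mutation or a further treatment.

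Apolipoproteins hold lipoprotein particles in solution and direct their lipid to receptors, enzymes and transporters. Apoa1 and Apoa2 are the main proteins of high density lipoprotein (HDL). Apoa4 travels on HDL and triglyceride-rich particles and in mice is made in intestine and liver. Apoa5, Apoc1 and Apoc3 set how fast triglyceride-rich particles are lipolysed and cleared, and Apoe is the ligand by which remnant particles are taken up. Apom, a lipocalin, carries sphingosine-1-phosphate on HDL, and Apoh, also called beta-2-glycoprotein I, is a plasma protein that binds phospholipid. Hepatocytes are the main source of most of these proteins, and Apoe is also made by macrophages.

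On CDAA, Apoa4 was higher and Apom was lower in both total liver and hepatocytes, by 17.4-fold and 5.42-fold for Apoa4 and by 2.64-fold and 4.05-fold for Apom. Apoh was lower in hepatocytes when all arrays shared one estimate of the spread, and not when hepatocyte arrays were fitted alone. The other 6 genes did not pass the test in either tissue. For 3 of them, Apoa1, Apoa2 and Apoe, the signal lay within 1 log2 unit of the brightest probe set on all 14 arrays. Only small differences can be seen in a range set this way, and they do not show equal transcript levels.

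The sequences before the annotated starts of Apoa4 and Apom are shown because these genes passed the test in both tissues. That of Apoa1 is shown because it lies in the same gene cluster as Apoa4 and did not pass. Each is the 250 bases upstream of the RefSeq transcription start in the mouse assembly GRCm38.p6, at chr9:46240594-46240843 on the plus strand for Apoa4, at chr17:35131802-35132051 on the minus strand for Apom and at chr9:46228380-46228629 on the plus strand for Apoa1. They are written 5′ to 3′ in the direction of transcription, and capitals mark matches to the core motif of nuclear receptors, spelled AGGTCA or AGTTCA or GGGTCA or GGTTCA on either strand.
Apoa4: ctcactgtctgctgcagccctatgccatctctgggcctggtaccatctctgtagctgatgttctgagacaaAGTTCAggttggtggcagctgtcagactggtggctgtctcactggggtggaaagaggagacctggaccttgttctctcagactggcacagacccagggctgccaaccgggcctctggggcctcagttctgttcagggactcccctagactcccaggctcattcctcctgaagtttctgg
Apom: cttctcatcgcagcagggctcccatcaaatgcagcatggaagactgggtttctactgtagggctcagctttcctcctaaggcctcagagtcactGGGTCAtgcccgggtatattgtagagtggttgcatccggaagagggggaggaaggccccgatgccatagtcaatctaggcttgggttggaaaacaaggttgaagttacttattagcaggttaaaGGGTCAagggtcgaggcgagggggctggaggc
Apoa1: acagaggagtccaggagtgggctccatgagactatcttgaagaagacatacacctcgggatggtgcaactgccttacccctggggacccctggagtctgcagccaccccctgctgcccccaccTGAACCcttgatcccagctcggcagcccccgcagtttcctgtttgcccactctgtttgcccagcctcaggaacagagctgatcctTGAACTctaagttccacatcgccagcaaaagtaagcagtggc
Apoa4 held 1 match, AGTTCA with its first base 179 bases before the start. Apom held GGGTCA at 156 and at 32 bases, and Apoa1 held AGTTCA and GGTTCA on the opposite strand, ending 37 and 122 bases before the start. At least 1 of the 4 spellings occurred in 38.6% of 32851 mouse promoters of the same length, so such a match is common. The last 3 spellings were added after AGGTCA alone, which occurs in 4607 of the 32851, gave no match in these 3 windows. Other motifs were searched on both strands and were not in these windows, namely TATAAA (in 12.4% of the promoters), AAAGTCC (3.58%), GTTAAT (6.43%), TGACG (17.8%) and CACGTG (6.02%). RefSeq promoters were at hand for 8 of the 10 genes.

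Values are log2 intensities, on which a difference of 1 is a 2-fold difference. Intensities of different probe sets are not compared as transcript levels, and levels are not compared between the tissues, since array medians lay at 6.07 to 6.24 in total liver and at 4.56 to 4.71 in hepatocytes, as if the tissues had been normalised apart. The root mean square distance of an array from its group's mean was 0.229 to 0.320 for total liver and larger, 0.363 to 0.594, for hepatocytes. For this reason the adjusted p from hepatocyte arrays fitted alone is given beside most hepatocyte calls. Most markers of macrophages, Kupffer cells, endothelial cells and stellate cells were higher on CDAA in the hepatocyte preparations. Of 14 measured markers each, 12 recruited macrophage, 13 Kupffer cell and 13 sinusoidal endothelial markers were higher on CDAA, as were 10 of 11 stellate cell markers (12, 12, 12 and 9 with hepatocytes alone). Of 26 secreted hepatocyte proteins 14 were lower there (3 with hepatocytes alone). The Kupffer list's C6 was lower in both tissues. Other marker lists rose less in hepatocytes, with 2 of 9 cholangiocyte, 6 of 14 lymphocyte and neutrophil and 2 of 5 erythroid and platelet markers higher. These were 2, 5 and 1 with hepatocytes alone, and 1 erythroid marker was lower in either fit. Of all probe sets 11.0% were higher and 7.74% lower in hepatocytes. In total liver 12 recruited macrophage, 6 Kupffer cell, 1 endothelial and 3 stellate cell markers were higher (12, 10, 4 and 4 with total liver alone), and Fabp5 of the macrophage list was lower. Of the cholangiocyte, lymphocyte and neutrophil, and erythroid and platelet markers 1, 4 and 0 were higher there, and 0, 1 and 1 lower. With total liver alone 1, 5 and 0 were higher, and 0, 1 and 1 lower. All 14 lymphocyte and neutrophil markers lay under the 95th percentile of the negative control probe sets on every total liver array, so their calls there are under background. In hepatocytes 14 did on CSAA and 11 on CDAA. Of the 9 cholangiocyte markers 6 lay under it in total liver on CDAA and 7 on CSAA. In total liver 1 secreted protein was higher and 0 were lower (5 lower with total liver alone). Of all probe sets 6.73% were higher and 3.54% lower in that tissue. In such bulk samples fewer cells of a type and less RNA per cell cannot be told apart. The hepatocyte genes Alb and Ttr, for albumin and transthyretin, lay close to the array maximum in all groups, at 18.44 to 19.30 in total liver on CDAA and at 19.60 and 19.81 in hepatocytes on CDAA.

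**Figure D1:**
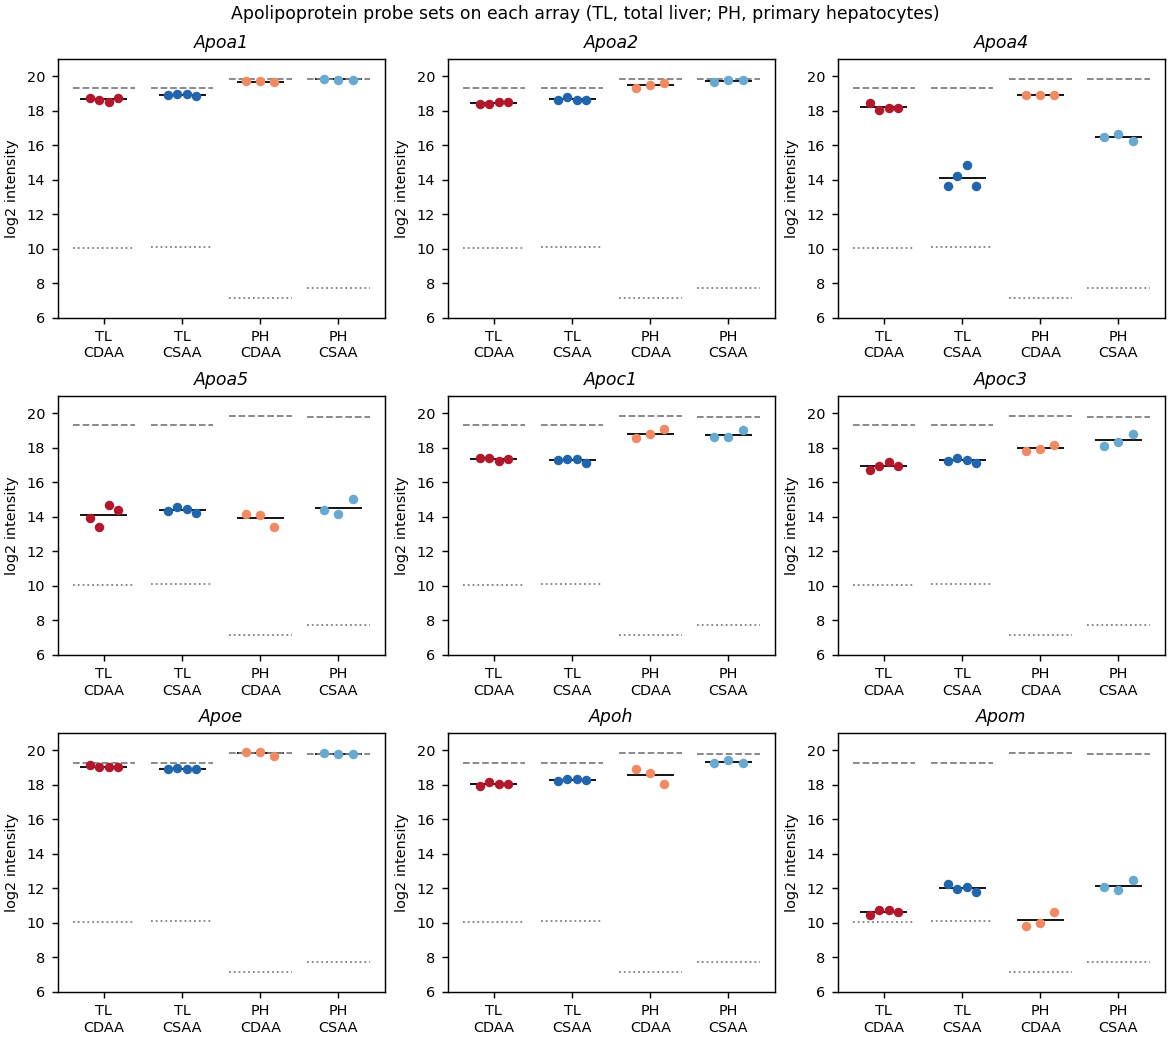
Log2 intensity of the 9 apolipoprotein probe sets on each array (points), with group means (black lines), for total liver (TL) and primary hepatocytes (PH), CDAA left of CSAA. The dashed grey line is the group's mean array maximum and the dotted line the mean 95th percentile of negative control probe sets. Apoa4 stood higher on CDAA than on CSAA and Apom lower in both tissues, and Apoa1, Apoa2 and Apoe lay close to the maximum throughout.

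Apoa4 was the apolipoprotein with the largest diet difference. In total liver its probe set (TC0900000560.mm.2) read 18.44, 18.06, 18.19 and 18.17 on the CDAA arrays, against 13.66, 14.21, 14.86 and 13.65 on the CSAA arrays. Every CDAA array lay at least 3 units above every CSAA array. The fitted difference was 4.12 ± 0.24 (SE; 17.4-fold, limma, adjusted p = 4.11e-08), the 40th highest of all 22206 probe sets. In hepatocytes Apoa4 read 18.89, 18.93 and 18.93 on CDAA, against 16.49, 16.66 and 16.27 on CSAA. The 3 CDAA preparations were nearly equal (SD 0.03) and lay above all 3 CSAA preparations. The fitted difference was 2.44 ± 0.27 (5.42-fold, limma, adjusted p = 8.53e-06, and adjusted p = 0.000839 with hepatocytes alone), the 903rd highest of all probe sets.

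The diet difference of Apoa4 was larger in total liver than in hepatocytes by 1.68 ± 0.36 (95% interval 0.91 to 2.45, limma, adjusted p = 0.018 for the difference of the 2 diet effects). Of all probe sets 2.57% passed this test, 0.212% with the higher and 2.36% with the lower effect in total liver, and of the 9 apolipoproteins Apoa4 was the 1 that did. Centring arrays on secreted hepatocyte proteins shrank it to 0.46 (adjusted p = 0.492). With the spread estimated per tissue the adjusted p was 0.0878, and without hepatocyte CSAA replicate 2 it was 0.0572, so the call depends on these 3 choices. On CDAA, Apoa4 lay 0.91 to 1.24 below the array maximum in total liver and 0.73 to 1.02 below it in hepatocytes. On CSAA it lay 4.44 to 5.64 below in total liver and 3.13 to 3.53 below in hepatocytes. The values on CDAA thus approach the top of the scale in both tissues, and the part of this limit in the 1.68 was not tested.

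The summed intensity of secreted hepatocyte proteins moved opposite to Apoa4. As log2 of the sum it was 22.50 to 22.57 on CDAA and 22.67 to 22.73 on CSAA in total liver. In hepatocytes it was 22.96 to 23.36 on CDAA and 23.57 to 23.65 on CSAA. The recruited macrophage sum in hepatocytes on CDAA was 17.56 in replicate 1, 19.25 in replicate 2 and 19.32 in replicate 3, against 15.21 to 16.34 on CSAA. There 10 of the 14 markers lay under the negative controls' 95th percentile on all 3 arrays (1 of 14 did on CDAA). The brightest gene of the list by mean was Plin2 on CSAA (15.53) and Mmp12 on CDAA (18.32), and each weighs most in its sum. Plin2 itself did not pass in hepatocytes (-0.42 ± 0.33, limma, adjusted p = 0.418), so the CSAA sum does not describe the list as a whole. The part of either sum in the Apoa4 values was not tested.

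Apom was lower on CDAA in both tissues. In total liver its probe set read 10.43, 10.72, 10.74 and 10.61 on CDAA, against 12.23, 11.97, 12.10 and 11.80 on CSAA. The groups did not overlap, and the difference was -1.40 ± 0.20 (2.64-fold lower, limma, adjusted p = 0.000294). On the CDAA arrays Apom stood only 0.43 to 0.70 above the 95th percentile of the negative control probe sets, against 1.57 to 2.26 above it on CSAA arrays, so that it was close to background there. In hepatocytes Apom read 9.80, 10.01 and 10.60 on CDAA, against 12.10, 11.88 and 12.47 on CSAA. The groups again did not overlap, and the difference was -2.02 ± 0.23 (4.05-fold lower, limma, adjusted p = 1.16e-05, and adjusted p = 0.0058 with hepatocytes alone). There it stood 2.96 to 2.99 above the negative controls on CDAA and 3.87 to 4.90 above them on CSAA. The diet differences of the 2 tissues did not differ past the threshold for Apom (0.62 ± 0.31, total liver minus hepatocytes, 95% interval -0.04 to 1.28, limma, adjusted p = 0.462). Among all probe sets Apom had the 247th lowest difference in total liver and the 260th lowest in hepatocytes.

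The fall of Apom kept its call in every alternative tried except the scaling to secreted hepatocyte proteins. With arrays centred on 6 such proteins below the ceiling, its adjusted p was 0.229 in total liver and 0.504 in hepatocytes, while Apoa4 still passed in both tissues. Those 6 proteins themselves passed as lower on CDAA in hepatocytes when all arrays shared the spread. With hepatocytes alone F2 and Fetub still passed (limma, adjusted p = 0.0446 and 0.0279), and Itih1, Itih2, Itih3 and Itih4 did not (limma, adjusted p of 0.0679 or more). Centring on the 6 put the median diet difference of all probe sets at 0.36 in total liver, and at 1.54 in hepatocytes.

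Apoh, the phospholipid-binding plasma protein, read 18.93, 18.68 and 18.03 in hepatocytes on CDAA, against 19.27, 19.42 and 19.25 on CSAA. All hepatocyte CDAA arrays lay below all CSAA arrays, by an amount that differed between the 3 CDAA preparations. The difference of -0.77 ± 0.21 passed when all arrays shared the spread (1.70-fold lower, limma, adjusted p = 0.0194) and did not with hepatocytes alone (adjusted p = 0.189). Leaving out CDAA replicate 3 gave -0.51 (adjusted p = 0.0739). Centring arrays on secreted hepatocyte proteins turned the sign, to 0.90 higher on CDAA (adjusted p = 0.0327). In the same 3 preparations the secreted protein sum was 23.36, 23.10 and 22.96, in the order of the replicates, so the array with the lowest Apoh also had the lowest sum. The part of this in the Apoh value was not tested. In total liver Apoh read 17.96, 18.15, 18.05 and 18.03 on CDAA, against 18.25, 18.33, 18.35 and 18.30 on CSAA. These groups did not overlap either, but the difference of -0.26 ± 0.19 did not pass (limma, adjusted p = 0.427). Apoh was within 1 unit of the array maximum on 3 of 3 hepatocyte CSAA arrays and on 1 of 3 CDAA arrays. In total liver it was so on 3 of 4 CSAA arrays and on 0 of 4 CDAA arrays.

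**Figure D2:**
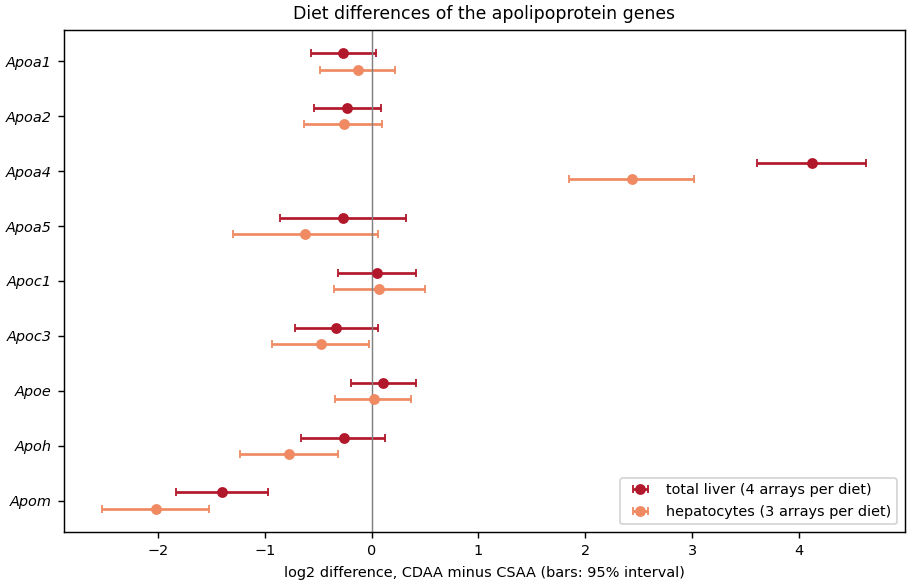
Diet difference of each apolipoprotein probe set (log2, CDAA minus CSAA; points) with its unadjusted 95% interval (bars), in total liver above hepatocytes for each gene. Apoa4 lies right of 0 and Apom left of 0 in both tissues, Apoh left of 0 in hepatocytes, and the interval of Apoc3 in hepatocytes excludes 0 although its adjusted p was 0.14.

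Of the 9 genes 2 passed in total liver, where 10.3% of all probe sets did, 1 higher (6.73% of all probe sets were) and 1 lower (3.54%). In hepatocytes 3 passed, where 18.7% of all probe sets did, 1 higher (11.0%) and 2 lower (7.74%). With each tissue fitted alone 2 of the 9 passed in total liver, where 20.8% of all probe sets did, and 2 in hepatocytes, where 8.48% did. The median difference of the 9 genes was -0.26 in total liver and -0.26 in hepatocytes, beside -0.09 and -0.13 over all probe sets. In total liver all CDAA arrays lay above all CSAA arrays for 2 genes (13.1% of all probe sets) and below them for 4 (12.0%), together 6 of 9, where the groups of 25.1% of all probe sets did not overlap. In hepatocytes they lay above for 1 (12.4%) and below for 5 (14.2%), beside 26.6% of all probe sets in either direction.

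The HDL proteins Apoa1 and Apoa2 lay at the top of the scale. Apoa1 read 18.76, 18.62, 18.51 and 18.75 in total liver on CDAA, against 18.91, 18.95, 18.98 and 18.87 on CSAA. The groups did not overlap, yet the difference of -0.27 ± 0.14 did not pass (limma, adjusted p = 0.284). In hepatocytes Apoa1 read 19.70, 19.71 and 19.66 on CDAA, against 19.86, 19.79 and 19.80 on CSAA, each of the last 3 being the maximum of its array. Apoa1 was saturated in this sense on all hepatocyte CSAA arrays, and it lay within 0.05 of the maximum on 1 of the 3 CDAA arrays. Its difference of -0.13 ± 0.17 did not pass (limma, adjusted p = 0.648), and no fold is given. Apoa2 averaged 18.45 ± 0.07 (SD, n = 4) on CDAA and 18.67 ± 0.09 (n = 4) on CSAA in total liver, with a difference of -0.23 ± 0.15 (SE). In hepatocytes it averaged 19.48 ± 0.17 (n = 3) on CDAA and 19.74 ± 0.07 (n = 3) on CSAA, with a difference of -0.26 ± 0.17. Neither passed (limma, adjusted p = 0.39 in total liver and 0.326 in hepatocytes).

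Apoe, the remnant ligand, read 19.14, 19.04, 19.03 and 19.04 in total liver on CDAA, against 18.94, 19.00, 18.93 and 18.93 on CSAA. Every CDAA array was higher, by a margin too small to pass (0.11 ± 0.14, 95% interval -0.19 to 0.42, limma, adjusted p = 0.683). It lay 0.19 to 0.27 below the array maximum on CDAA and 0.29 to 0.38 below it on CSAA. In hepatocytes Apoe was within 0.05 of the maximum on all 6 arrays, at 19.66 to 19.92 on CDAA and 19.79 to 19.86 on CSAA, so no fold is given for it there. This plateau held 2 to 27 probe sets per hepatocyte array, and 1 to 3 per total liver array. The widest plateau of the CDAA group, 27 probe sets, was on replicate 3, and the CSAA arrays had 17, 23 and 21. Apoa1, Apoa2 and Apoe were all on it in CDAA replicate 3 and in CSAA replicates 2 and 3.

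Within 1 unit of the maximum on every array of a tissue lay 19 probe sets in total liver and 34 in hepatocytes, and Apoa1, Apoa2 and Apoe were among them in both. In total liver 0 of the 19 passed, with differences from -0.35 to 0.28, and in hepatocytes 1 of the 34, with -0.37 to 0.64. The range was set on the arrays of both diets, so a probe set in it has a small difference by that choice. The small differences of these 3 genes therefore do not show that their transcripts were equal.

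Apoc1, Apoc3 and Apoa5 bear on triglyceride clearance, and they lay below the range of the ceiling in total liver. Apoc1, an inhibitor of lipoprotein uptake and of cholesteryl ester transfer, averaged 17.35 ± 0.09 (SD, n = 4) on CDAA and 17.29 ± 0.10 (n = 4) on CSAA in total liver. Its difference was 0.05 ± 0.17 (SE, 95% interval -0.31 to 0.42). In hepatocytes it averaged 18.83 ± 0.28 (n = 3) on CDAA and 18.76 ± 0.24 (n = 3) on CSAA, with a difference of 0.07 ± 0.20 (95% interval -0.35 to 0.50). The groups overlapped in both tissues (limma, adjusted p = 0.889 and 0.844), and the hepatocyte interval leaves room for a change of 0.35 down or 0.50 up. In hepatocytes Apoc1 lay 0.56 to 1.36 below the array maximum on CDAA and 0.76 to 1.23 below it on CSAA. It was thus near the ceiling on 1 of 3 arrays of each diet, and the part of this in its difference was not tested.

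Apoc3, which slows lipolysis and remnant uptake, read 16.70, 16.96, 17.18 and 16.94 in total liver on CDAA, against 17.25, 17.39, 17.32 and 17.15 on CSAA. In hepatocytes it read 17.81, 17.92 and 18.16 on CDAA, against 18.13, 18.36 and 18.82 on CSAA. The last of these lay 0.98 below its array maximum, so Apoc3 was near the ceiling on 1 of 3 hepatocyte CSAA arrays. The means were lower on CDAA in both tissues with overlap of the arrays, by -0.33 ± 0.18 (limma, adjusted p = 0.297) and -0.47 ± 0.21 (limma, adjusted p = 0.14, and 0.379 with hepatocytes alone). Centring each array on its median, which moves the median of all hepatocyte differences to -0.29, gave Apoc3 -0.63 there (limma, adjusted p = 0.0466).

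Apoa5, an activator of lipoprotein lipase, read 13.95, 13.41, 14.70 and 14.40 in total liver on CDAA, against 14.31, 14.56, 14.47 and 14.20 on CSAA, and the CDAA arrays lay on both sides of the CSAA arrays. The SD was 0.56 on CDAA and 0.16 on CSAA. In hepatocytes it read 14.19, 14.11 and 13.43 on CDAA, against 14.38, 14.19 and 15.01 on CSAA. The differences of -0.27 ± 0.28 and -0.62 ± 0.32 did not pass (limma, adjusted p = 0.607 and 0.205), and their 95% intervals, -0.86 to 0.32 and -1.30 to 0.06, are the widest of the 9 genes.

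Several of these genes lie side by side in the mouse genome, so that neighbours can be compared. In RefSeq gene order Apoa1, Apoc3, Apoa4 and Apoa5 form a cluster on chromosome 9, and Apoc2, Apoc4, Apoc1 and Apoe one on chromosome 7. In the first cluster Apoa4 was the 1 gene of the 4 that passed in either tissue. Its flanking genes Sik3, a kinase, Zpr1 and Bud13 did not pass in either tissue (limma, adjusted p of 0.169 or more). On the Apoa1 side lies Pafah1b2, a subunit of platelet-activating factor acetylhydrolase, with 0.28 ± 0.20 in total liver and 0.73 ± 0.23 in hepatocytes (limma, adjusted p = 0.432 and 0.0353, the second 0.209 with hepatocytes alone). In the second cluster neither Apoc1 nor Apoe passed, nor did the flanking genes Relb, Clptm1, Tomm40 and Nectin2 (limma, adjusted p of 0.0691 or more). The levels of Bud13 and Relb were under the negative controls' 95th percentile in all groups, and Pafah1b2 was under it on 2 of 4 total liver and 1 of 3 hepatocyte CSAA arrays.

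**Figure D3:**
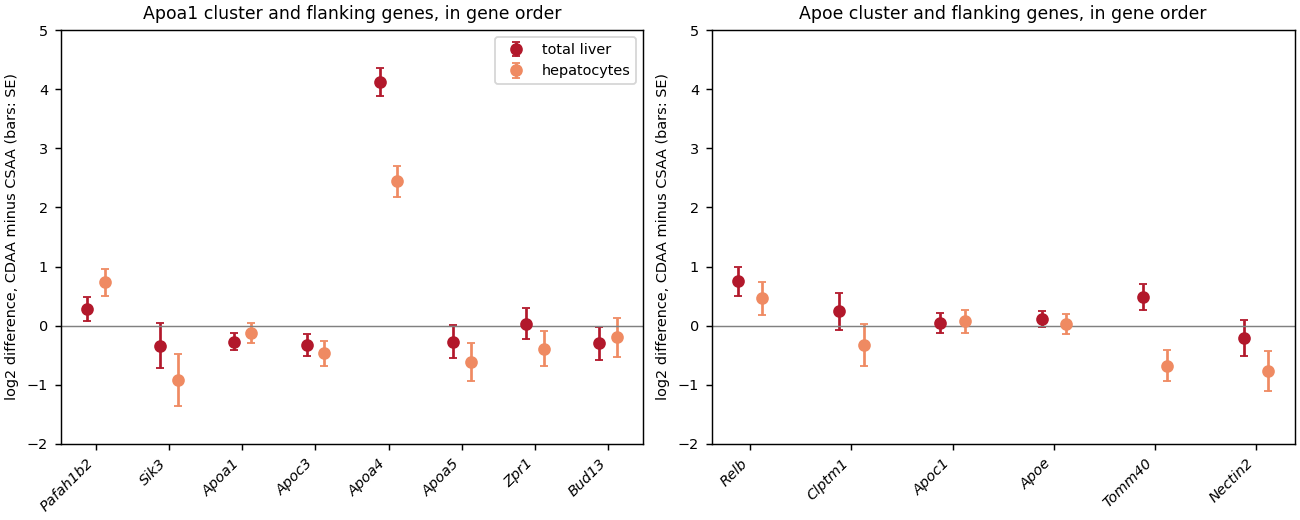
Diet differences (log2, CDAA minus CSAA) ± SE of the genes with a named probe set in the 2 apolipoprotein clusters and of 2 flanking genes on each side, in gene order (not to scale), for total liver and hepatocytes. Apoa4 stands at 4.12 and 2.44 among chromosome 9 neighbours whose differences lie between -0.92 and 0.73.

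The genes whose array-to-array pattern was most like that of a called apolipoprotein were sought among probe sets past the threshold in the same tissue, by Pearson correlation over 14 arrays after each tissue's mean was subtracted. The diet step dominates such a correlation, which is a description. Closest to Apoa4 were Haus8, a subunit of the augmin complex of the spindle (r = 0.98), and Cidec, a lipid droplet protein (r = 0.976). On CSAA both were under the negative controls' percentile in both tissues. They were higher on CDAA by at least 1.72-fold (Haus8) and 1.86-fold (Cidec) in total liver (limma, adjusted p = 2.11e-07 and 1.93e-07). Closest to Apom were Slc22a30, a transporter of the organic anion family (r = 0.98), and C9, a complement component (r = 0.976). Slc22a30 was lower by 2.30 ± 0.22 in total liver and by 3.40 ± 0.25 in hepatocytes, and C9 by 1.41 ± 0.25 and 2.00 ± 0.29 (limma, adjusted p = 0.00159 or less, and 0.0184 or less with hepatocytes alone). Closest to Apoh were Asgr2, a subunit of the asialoglycoprotein receptor (r = 0.971), and Slc25a1, the mitochondrial citrate carrier (r = 0.966).

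Other apolipoproteins and acute phase HDL proteins were measured for 15 of 16 genes of a list. In total liver 0 of the 15 passed by limma, where 10.3% of all probe sets did. With total liver alone 1 was lower, where 20.8% of all probe sets passed. In hepatocytes 3 were higher and 3 lower, beside 11.0% and 7.74% of all probe sets. With hepatocytes alone 2 were higher and 1 lower, where 8.48% of all probe sets passed. Saa1 and Saa2 encode serum amyloid A, which displaces Apoa1 from HDL in the acute phase. Saa2 averaged 12.95 on CDAA and 9.55 on CSAA in hepatocytes (3.40 ± 0.59, limma, adjusted p = 0.000602, and 0.0018 alone). Saa1 had 2.64 ± 0.57 there (limma, adjusted p = 0.00382, and 0.00975 alone), with 2 of 3 CSAA arrays under the negative controls' percentile. In total liver Saa2 had 1.58 ± 0.51 and Saa1 0.91 ± 0.50 (limma, adjusted p = 0.0636 and 0.29); their sequences are near-identical and whether the probe sets tell them apart was not tested. Apon, an apolipoprotein of mouse plasma, was lower in hepatocytes (-1.38 ± 0.25, limma, adjusted p = 0.00107, and 0.0417 alone). Apob, the structural protein of very low density lipoprotein (VLDL), had 0.12 ± 0.41 in total liver and -1.42 ± 0.47 in hepatocytes, where the groups overlapped (limma, adjusted p = 0.895 and 0.0467, the second 0.273 alone).

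Of 18 genes of VLDL assembly and secretion 2 were lower and 0 higher in total liver, where 3.54% of all probe sets were lower and 6.73% higher. In hepatocytes 8 were lower and 1 higher, beside 7.74% and 11.0% of all probe sets. With total liver alone 7 were lower and 1 higher (20.8% of all probe sets passed), and with hepatocytes alone 3 and 1 (8.48% passed). The same shares stand beside the counts of the lists that follow. Mttp, the microsomal protein that loads lipid onto Apob, averaged 13.70 on CDAA and 14.51 on CSAA in total liver (-0.81 ± 0.24, limma, adjusted p = 0.0421). In hepatocytes it averaged 12.46 on CDAA and 14.43 on CSAA (-1.96 ± 0.27, limma, adjusted p = 7.9e-05, and 0.0159 alone). Sort1, a sorting receptor for Apob particles, was lower by 1.02 ± 0.22 in total liver and by 1.19 ± 0.26 in hepatocytes (limma, adjusted p = 0.00661 and 0.00353, the second 0.0383 alone), with 3 of 4 and 2 of 3 CDAA arrays under the negative controls' percentile. Apobec1, the editing enzyme of Apob transcripts, was higher in hepatocytes (2.94 ± 0.33, limma, adjusted p = 8.84e-06, and 0.00198 alone) and had 0.72 ± 0.29 in total liver. Smlr1, a small membrane protein of liver, passed as lower in hepatocytes (-1.17 ± 0.23, limma, adjusted p = 0.00202, and 0.0401 alone). There 3 of 3 CDAA and 1 of 3 CSAA arrays of Smlr1 lay under the negative controls' percentile, so no fold is given. The list median was -0.25 in total liver and -0.76 in hepatocytes.

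Among 11 measured genes of HDL formation and remodelling 2 were higher and 2 lower in total liver (2 and 3 with total liver alone), and 2 higher and 3 lower in hepatocytes (2 and 2 with hepatocytes alone). Pltp, the phospholipid transfer protein, was higher by 2.40 ± 0.56 in total liver and 5.35 ± 0.65 in hepatocytes (limma, adjusted p = 0.0117 and 1.92e-05, the second 0.007 alone). On CSAA 2 of 4 total liver and 1 of 3 hepatocyte arrays of Pltp lay under the negative controls' percentile, so these sizes are uncertain. Abcg1, a sterol exporter of macrophages among other cells, rose as well, but lay under the negative controls' percentile on both diets in total liver. Lower was Bmp1, a protease that processes the Apoa1 precursor (-1.34 ± 0.36 and -2.49 ± 0.41, limma, adjusted p = 0.025 and 0.000384, the second 0.0337 alone), with 1 of 4 and 2 of 3 CDAA arrays under that percentile. Also lower was Ces1e, a carboxylesterase that averaged 12.18 on CDAA and 14.18 on CSAA in total liver (SE of the difference 0.21). In hepatocytes Ces1e differed by -3.12 ± 0.24 (limma, adjusted p = 1.81e-07, and 0.00047 alone). Abca1, which loads lipid onto Apoa1, had 0.18 ± 0.37 in total liver and -1.22 ± 0.42 in hepatocytes (limma, adjusted p = 0.82 and 0.0584).

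Lpl, the lipase that Apoa5 activates, averaged 12.90 on CDAA and 8.69 on CSAA in total liver, the CSAA arrays lying under the negative controls' percentile. It was at least 7.04-fold higher there (limma, adjusted p = 7.98e-05). In hepatocytes it averaged 13.14 on CDAA and 7.54 on CSAA (limma, adjusted p = 5.9e-06, and 0.00146 alone), where 2 of the 3 CSAA arrays lay under that percentile, so no fold is given. Lpl is also a gene of the recruited macrophage list. Angptl8, an inhibitor of Lpl made in liver, was lower in total liver (-2.05 ± 0.49, limma, adjusted p = 0.013), with 1 of 4 CDAA arrays under that percentile. Of 9 measured genes of the lipase and its regulators 1 was higher and 1 lower in total liver (1 and 2 alone), and 3 higher and 2 lower in hepatocytes (2 and 0 alone). Gpihbp1, which anchors Lpl on capillary endothelium, was higher in hepatocyte preparations (3.69 ± 0.66, limma, adjusted p = 0.000772, and 0.0435 alone). Of its hepatocyte CSAA arrays 1 of 3 lay under the percentile, and in total liver it was under it on both diets. Sel1l, which helps Lpl leave the endoplasmic reticulum, was lower in hepatocytes (-2.23 ± 0.43, limma, adjusted p = 0.00145, and 0.0602 alone). Of 15 measured receptors and their regulators 2 were higher and 0 lower in total liver (5 and 1 alone), and 4 higher and 0 lower in hepatocytes (4 and 0 alone). Those in total liver were the scavenger receptors Cd36, at least 13.6-fold higher, and Msr1, at least 2.12-fold higher (limma, adjusted p = 1.04e-06 and 0.000637). Macrophages express both. Mylip, a ubiquitin ligase that degrades the LDL receptor, was at least 5.22-fold higher in hepatocytes (limma, adjusted p = 1.84e-06, and 0.00264 alone).

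**Figure D4:**
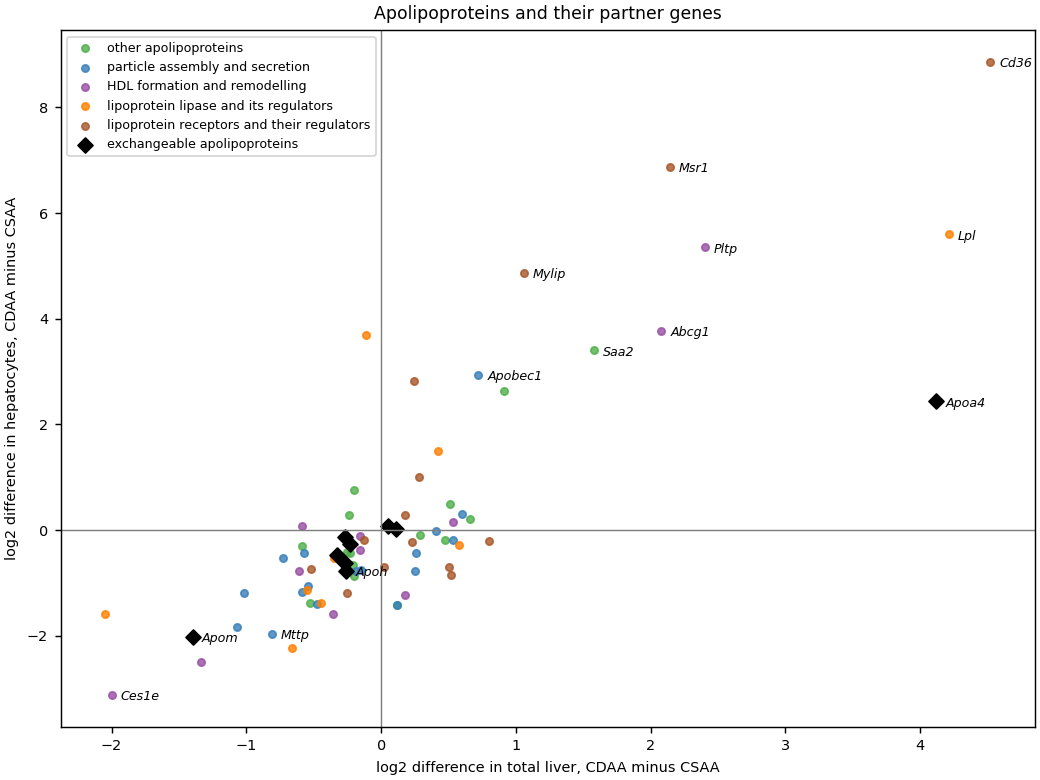
Diet differences (log2, CDAA minus CSAA) in total liver (horizontal axis) against hepatocytes (vertical axis) for the 9 apolipoproteins (diamonds) and for listed genes of lipoprotein assembly, remodelling, lipolysis and uptake (circles, coloured by list). Apoa4 lies at 4.12 and 2.44, and Cd36, Lpl and Pltp lie right of 0 and above 0 with it. Fitted differences are drawn, also where a group lies under the negative controls.

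Of 28 measured regulators of apolipoprotein genes 2 were higher and 2 lower in total liver (2 and 6 with total liver alone), and 2 higher and 9 lower in hepatocytes (2 and 1 with hepatocytes alone). The median was -0.38 in total liver and -1.07 in hepatocytes. Mlxipl, the carbohydrate response factor, was lower in both (-1.17 ± 0.29 and -3.25 ± 0.33, limma, adjusted p = 0.0154 and 3.19e-06, the second 0.00367 alone). Onecut1, a hepatocyte factor, was lower in total liver (-3.96 ± 1.10, limma, adjusted p = 0.0311), where 3 of 4 CDAA arrays lay under the negative controls' percentile. Cebpa, another hepatocyte factor, had -1.07 ± 0.36 in total liver and was lower in hepatocytes (-2.12 ± 0.42, limma, adjusted p = 0.078 and 0.00186, the second 0.064 alone). Creb3l1, a membrane-bound factor, passed as higher in both tissues (2.07 ± 0.32 and 1.83 ± 0.37, limma, adjusted p = 0.000545 and 0.00223, the second 0.0166 alone) with all arrays under the negative controls' percentile. Pparg, a nuclear receptor of lipid storage, passed as higher in hepatocytes (2.58 ± 0.40, limma, adjusted p = 0.000234, and 0.0139 alone). There 1 of 3 CDAA and all 3 CSAA arrays lay under that percentile, so no fold is given. Pparg also passed as higher in total liver (1.75 ± 0.35, limma, adjusted p = 0.00361), where 3 of 4 CDAA and all 4 CSAA arrays lay under that percentile. Hnf4a, a nuclear receptor that binds many apolipoprotein promoters, had -0.52 ± 0.40 in total liver and -1.72 ± 0.46 in hepatocytes (limma, adjusted p = 0.46 and 0.0143, the second 0.164 alone).

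The summed intensity of the 9 apolipoproteins differed little between diets. As log2 of the sum it was 21.05 to 21.11 on CDAA and 20.96 to 21.07 on CSAA in total liver, and 21.97 to 22.02 on CDAA and 21.99 to 22.09 on CSAA in hepatocytes, with overlap in both tissues. The probe sets at the ceiling make up much of this sum. The marker sums moved more. The stellate cell sum in hepatocyte preparations was 16.43 to 18.35 on CDAA and 9.50 to 11.57 on CSAA, and the endothelial sum was 15.98 to 16.91 on CDAA and 11.10 to 11.70 on CSAA. The stellate sum was mostly Dcn, with means of 17.60 on CDAA and 10.42 on CSAA. On CSAA 10 of 11 stellate and 9 of 14 endothelial markers lay under the negative controls' percentile on every hepatocyte array, and on CDAA 4 and 2 did. The Kupffer cell sum in total liver was 16.82 to 17.15 on CDAA and 17.37 to 17.96 on CSAA. The brightest gene of that list on both diets was C6, also a complement gene, which was lower on CDAA (15.42 against 17.46 on CSAA) and weighs most in the sum. The mean log2 level of the list went the other way in total liver, at 10.62 to 11.13 on CDAA and 9.52 to 10.21 on CSAA. The Kupffer cell sum there thus does not describe the list as a whole. The part of these cells in the apolipoprotein values was not tested.

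**Figure D5:**
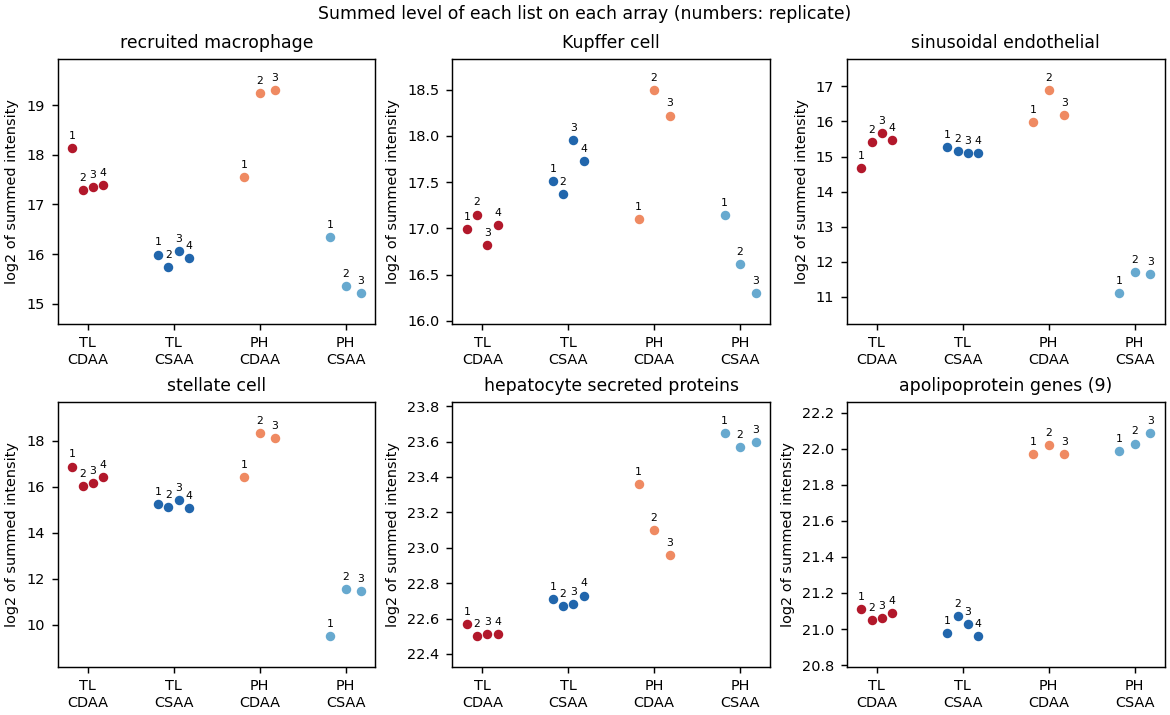
Log2 of the summed intensity of 4 marker lists, of secreted hepatocyte proteins and of the 9 apolipoproteins on each array (points, numbered by replicate), for total liver (TL) and hepatocytes (PH), CDAA left of CSAA. The hepatocyte CDAA replicates 2 and 3 have higher macrophage, Kupffer and stellate cell sums than replicate 1, and the apolipoprotein sums of the diets overlap in each tissue.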

How the data were processed

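RNA of 8 total liver and 6 hepatocyte preparations was hybridised to 14 arrays, 1 per sample, grouped by tissue and diet as titled. The deposited log2 intensity values were made by the authors with RMA, per the submitters' processing notes, which give no version. RMA corrects background, equalises array distributions and summarises each probe set, and it compresses the brightest and dimmest signals. Per the labels' protocols the tissues were extracted with different kits. Of 28846 probe sets 6640 controls were left out and 22206 were tested, with no filter on dim ones. Symbols came from the platform annotation, which named 19572 probe sets and left 2634 unnamed. Each apolipoprotein found had 1 probe set.

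A linear model of group means over the 14 arrays was tested two-sided with limma 3.58.1 (R 4.3.3), with Benjamini-Hochberg adjustment over the 22206 probe sets and a threshold of 0.05. Contrasts were CDAA minus CSAA per tissue and the difference of the 2. Whether preparations of a group came from separate mice is not stated, so p-values measure the spread between preparations. The number of arrays limits the precision. Scripts were tested on simulated data. Background was the 95th percentile of 5222 negative control probe sets, a group wholly beneath it counted as not above it, and an "at least" fold then sets it at that percentile. Near the ceiling means within 1 of the array maximum.

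The apolipoproteins and the 14 other gene lists were chosen with earlier results of these data known. Named from each pathway list were up to 4 genes of smallest p past the threshold in total liver and 3 in hepatocytes. Also named were Apob, Mttp, Abca1, Hnf4a, Alb and Ttr whatever their p, the cluster neighbours and the most alike genes. Marker lists, under the same rule, are given by counts and sums. C6 and Fabp5 are named as the ones lower in the Kupffer and recruited macrophage lists. Plin2, Mmp12 and Dcn are named for their weight in a sum, and the proteins used for centring are named as well. Alternatives were limma-trend, each tissue alone, a filter on dim probe sets, quantile normalization over both tissues or within each, centring on array medians or secreted proteins, array weights, a replicate block, leaving out each array and averaging probe sets. Weights by tissue were added after the data were seen.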

Additional observations from a re-analysis of the deposited data

Results flagged for a closer look

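In total liver on CDAA the highest Apoe value, 19.14 on replicate 1, stood apart from the other 3 arrays (19.03 to 19.04), its gap being 0.92 of the group's range. It was 1 of 18 combinations of gene and total liver group examined, and a gap wide enough to be listed here (past Dixon's 95% value) arises by chance in about 1 of 20 groups. The array's maximum was 19.36, against 19.23 to 19.30 on the other CDAA arrays. It also had the highest recruited macrophage sum of its group, 18.14 against 17.30 to 17.40; the part of either was not tested.

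The diet difference of Apoa4 differed between tissues, 4.12 in total liver against 2.44 in hepatocytes, by 1.68 ± 0.36 (limma, adjusted p = 0.018). The adjusted p ranged from 0.00128 to 0.492 over 24 alternatives, of which 21 passed the threshold, and centring on secreted proteins gave 0.46.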

How the results depend on the processing

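The number of arrays, the ceiling and values near background limit these results. Apoa4 passed in 25 of 25 alternatives in total liver (3.97 to 4.86, leaving aside the centring on secreted proteins) and in 25 of 25 in hepatocytes (2.15 to 2.60). Apom passed in 24 of 25 in each tissue (-1.59 to -1.33 and -2.25 to -1.85, with the same exception). Some of these alternatives could not move an estimate, namely leaving out an array of the other tissue and averaging probe sets of genes with 1 probe set. Apoh in hepatocytes passed as lower in 19 of 25. It turned to higher under the centring on secreted proteins, and it failed with hepatocytes alone, after joint quantile normalization (-0.50, adjusted p = 0.0706), with weights by tissue (adjusted p = 0.0771), without CSAA replicate 2 (adjusted p = 0.0659) and without CDAA replicate 3.

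Of all probe sets 2279 passed in total liver, 4158 in hepatocytes and 570 for the difference of effects. With each tissue alone 4613 and 1883 passed, with array weights 4992, 6806 and 2725, and with weights by tissue 4604 and 2529. Leaving out 1 array gave 1510 to 3115 in total liver (1510 without CDAA replicate 1), 3039 to 5811 in hepatocytes, and 396 to 2265 for the difference (2265 without hepatocyte CDAA replicate 1). The split of higher to lower was 1494 to 785 in total liver and 2439 to 1719 in hepatocytes. It was 1265 to 1650 and 2149 to 3244 after centring on array medians, which put the median of all differences at -0.23 and -0.29. After joint quantile normalization it was 1252 to 851 and 2360 to 3068, after quantile normalization within tissues 1349 to 983 and 2231 to 2731, and after centring on secreted proteins 1817 to 140 and 19201 to 110. That centring put the median at 0.36 and 1.54, called 19311 probe sets in hepatocytes and 1588 for the difference, and changed the apolipoproteins called to 1 in total liver, 8 in hepatocytes and 0 for the difference. With the spread estimated per tissue 0 differed between tissues by limma. Leaving out 1 array, 2 were called in total liver each time, 2 to 3 in hepatocytes and 0 to 1 for the difference (0 without hepatocyte CSAA replicate 2).

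Signs turned for genes that had not passed, and for Apoh, under the centring on secreted proteins. In total liver these were Apoa1 (0.19), Apoa2 (0.23), Apoa5 (0.19), Apoc3 (0.12) and Apoh (0.19). In hepatocytes they were Apoa1 (1.54), Apoa2 (1.41), Apoa5 (1.05), Apoc3 (1.19) and Apoh (0.90, adjusted p = 0.0327). For the difference of effects they were Apoa2 (-1.18), Apoa5 (-0.86), Apoc3 (-1.07), Apoe (-1.12), Apoh (-0.71) and Apom (-0.60). Centring on array medians turned Apoc1 (-0.08 in total liver, -0.09 in hepatocytes, 0.00 for the difference) and Apoe (-0.03 and -0.14). Joint quantile normalization turned the difference of effects of Apoa1 (0.10) and Apoe (-0.06). Leaving out 1 array, Apoc1 ranged from -0.07 to 0.21 and Apoe from -0.03 to 0.10 in hepatocytes. The difference of effects ranged from -0.05 to 0.12 for Apoa2, from -0.16 to 0.12 for Apoc1 and from -0.05 to 0.30 for Apoc3. The cause of these changes was not tested.

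The correlation between the deviations of CDAA and CSAA arrays sharing a replicate number was -0.13 to 0.02 (total liver) or 0.35, -0.21 and 0.26 (hepatocytes). In hepatocytes it had no consistent sign. Deviations from a group mean cancel within the group, so this check cannot settle whether a number marks a shared preparation. The arrays were not paired in the main fit. With the replicate number as a block 2215, 4285 and 615 probe sets passed, and the count of apolipoproteins called stayed at 2, 3 and 1.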
